A study of Homo sapiens with 16 samples.

Results

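In Rh30 cells, 687 of 56949 open chromatin regions gained accessibility by 4 h of dTAG47 and still carried the gain at 24 h. Rh30 is an established line of alveolar rhabdomyosarcoma, a childhood tumour with features of skeletal muscle. The regions were chosen by measured values of the first of 2 ATAC-seq experiments, called 6086 in the labels. In 6086 levels are in CPM, the reads of a region scaled to the total over all regions of its library. A change there is log2 of the mean treated CPM plus 0.5 over the mean DMSO CPM plus 0.5. A region was taken if its mean over the 8 libraries was at least 5 CPM, its change at 4 h at least 0.3 and its change at 24 h at least 0.4. Of the 56949 regions, 48035 reached 5 CPM.

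All libraries came from Rh30 cells whose PAX3-FOXO1 carries an FKBP tag, and treated cells received 500 nM dTAG47. Experiment 6086 has DMSO, 2 h, 4 h and 24 h, and experiment 6211 has its own DMSO, 0.5 h, 1 h and 2 h, with 2 libraries in each group and 16 in all. The labels name no cells without the tag treated with dTAG47 and give no duration for DMSO. Effects of losing the fusion, of the compound itself and of time in culture thus cannot be told apart. How much fusion protein remained was not analysed here, and the labels do not say whether the tagged cells are 1 clone.

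PAX3-FOXO1 is a fusion transcription factor that joins the DNA-binding part of PAX3, a regulator of muscle precursors, to the activating part of FOXO1. It binds enhancers, opens chromatin there and keeps the tumour cells in a proliferating, myogenic-like state. dTAG47 links an FKBP-tagged protein to a ubiquitin ligase, so that the protein is degraded. ATAC-seq counts where a transposase can insert adapters into DNA, so a gain means more insertions in a region, as at enhancers and promoters that lose nucleosomes or take up factors.

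Reads in regions numbered 18038062 to 31308682 per library in 6086 and 9934147 to 18275976 in 6211. The libraries are named by the letters A and B of the deposited columns. Positions follow the deposited tables, read as hg19, the human build that the submitters' processing notes name. No genome or gene annotation on hg19 was used here, so regions carry no gene name, exon, promoter or sequence, and the labelled cell type was not checked against markers. The labels do not say that the libraries of a group came from separate cultures, so a p-value here speaks only of the spread among these libraries.

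The gains were modest at 4 h and larger at 24 h. Among the 687 regions the 2 h median of the log2 change was 0.24 (−0.19 to 0.62), the 4 h median 0.36 (0.30 to 0.79) and the 24 h median 0.61 (0.40 to 1.65). The values at 4 h and 24 h chose the regions and those at 2 h share the DMSO libraries with them, so the 3 medians are a description with no test. By library, the median change from the DMSO mean was −0.01 and 0.01 in the DMSO libraries and 0.23 and 0.25 at 2 h. It was 0.38 and 0.35 at 4 h and 0.60 and 0.63 at 24 h. The 2 libraries of a time lay closer to each other than to any library of another time. Over all regions of at least 5 CPM, the library medians did not exceed 0.02.

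**Figure D1:**
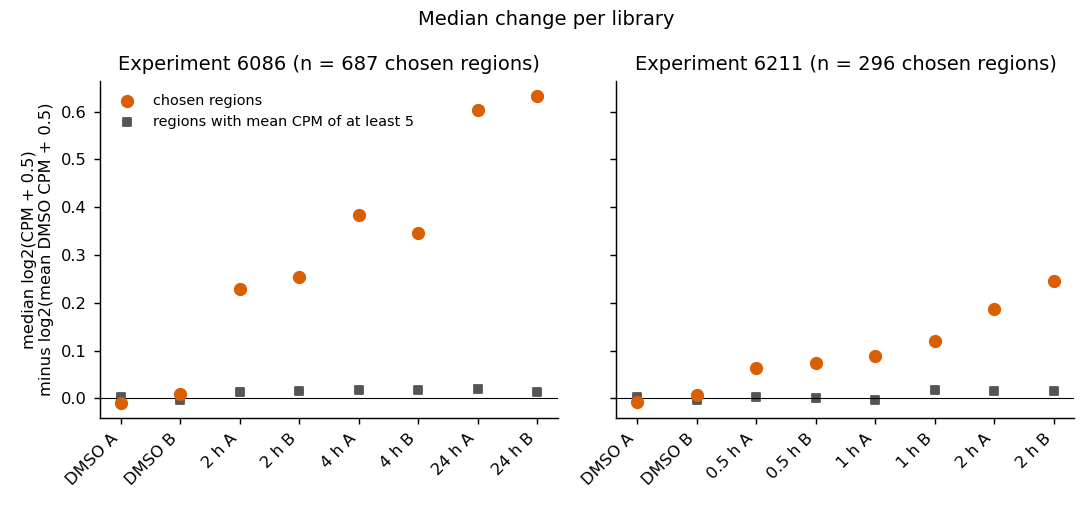
Median log2 change of each library (x axis) from the mean of its DMSO libraries, on a log2 scale with 0.5 CPM added, over the chosen regions (circles) and over regions of at least 5 CPM (squares), for experiment 6086 on the left and 6211 on the right. In 6086 the circles climb from 0.23 and 0.25 at 2 h to 0.60 and 0.63 at 24 h, and in 6211, which did not choose the regions, from 0.06 and 0.07 at 0.5 h to 0.19 and 0.24 at 2 h. The CPM of 6211 is scaled by TMM factors and that of 6086 is not.

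Most of the regions stood higher at each later time. In 611 of the 687 (88.9%) the change at 2 h was below that at 4 h and the change at 4 h below that at 24 h. In 59 the change at 2 h was above that at 4 h, and in 17 the change at 24 h was below that at 4 h. Both 24 h libraries lay above both 4 h libraries in 547 regions and below both in 4. The rule used these libraries and the shares over all regions were not computed, so nothing is read from these counts. From 4 h to 24 h the further change had a median of 0.24 and ran from −0.19 to 1.252. It was under 0.1 in 111 regions, 0.1 to 0.3 in 306, 0.3 to 0.5 in 186 and at least 0.5 in 84. A gain of at least 0.5 at 4 h was reached by 68 regions, and a gain of at least 1 at 24 h by 55. Across the 687 regions the changes at 4 h and 24 h, which share the DMSO libraries, correlated with Pearson r = 0.34 (Spearman rho = 0.30).

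Both treated libraries lay above both DMSO libraries in 681 of the 687 regions (99.1%) at 4 h and in all 687 at 24 h. The same held for 25.4% of all 56949 regions at 4 h and for 34.1% at 24 h. Because the rule used these libraries, nothing is read from the excess. At 2 h both treated libraries lay above both DMSO libraries in 528 of the regions (76.9%). The share over all regions was not computed at 2 h, and the DMSO libraries are those of the rule. Nothing is read from that count either. The change at 2 h was at least 0.3 in 216 regions, 0.2 to 0.3 in 214, 0.1 to 0.2 in 178 and under 0.1 in 79, of which 20 were below 0.

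**Figure D2:**
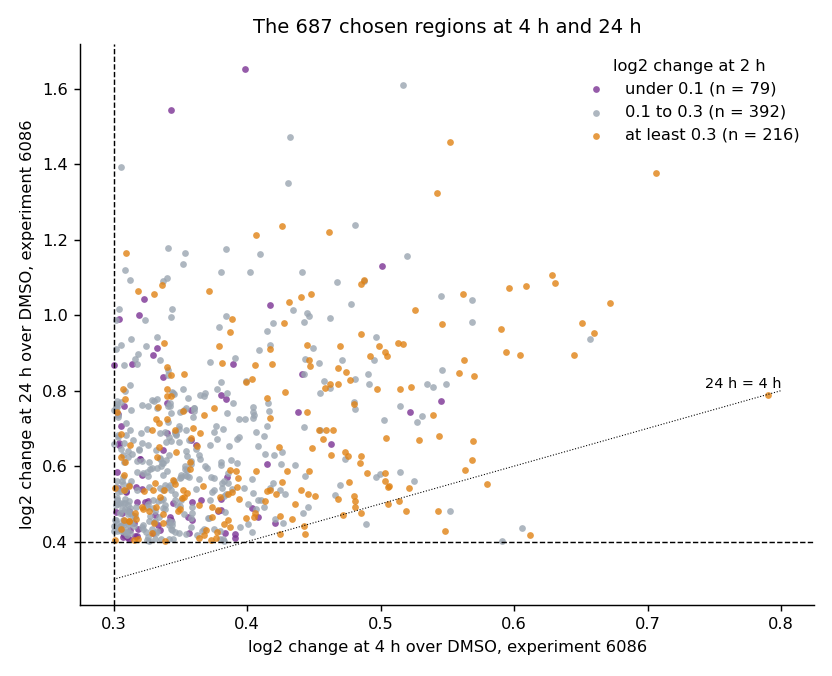
Log2 change over DMSO at 4 h (x axis) and at 24 h (y axis) in experiment 6086 for each of the 687 chosen regions, coloured by the change at 2 h, with the 2 thresholds dashed and equality dotted. Most points lie near the 4 h threshold of 0.3 and above the dotted line, and 17 lie below it.

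The highest gain at 4 h was at chr19:56622517-56622819, a 303 bp region. It had 4.38 and 6.01 CPM in DMSO, 7.24 and 7.45 at 2 h, 8.92 and 9.77 at 4 h, and 9.97 and 8.69 at 24 h. Its change was 0.79 at both 4 h and 24 h, so the level reached by 4 h was the level found at 24 h, and all treated libraries were above both DMSO libraries. The second was chr22:19666499-19667085, with 7.48 and 5.70 CPM in DMSO, 7.78 and 9.01 at 2 h, 11.5 and 10.7 at 4 h and 17.05 and 18.7 at 24 h. That region stood higher at each later time, from a change of 0.71 at 4 h to 1.38 at 24 h, with no overlap between the libraries of any 2 times. The next were chr2:13111082-13111319 (0.67), chr9:125138719-125139033 (0.66) and chr12:47357817-47358152 (0.66), each with a mean level under 7 CPM and a change of 0.94 to 1.03 at 24 h.

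At 2 of the 3 highest gains at 24 h, the 2 h libraries had barely left the DMSO level. At chr10:50282988-50283348 accessibility was 3.33 and 3.29 CPM in DMSO, 3.39 and 3.43 at 2 h, 4.70 and 4.35 at 4 h and 10.7 and 12.2 at 24 h. The 2 h libraries lay just above DMSO (log2 change 0.04), the 4 h libraries stood above them (0.40) and the 24 h libraries far above all others (1.65). At chr22:29545850-29546291 the levels were 3.49 and 2.98 CPM in DMSO, 3.39 and 3.22 at 2 h, 4.18 and 4.31 at 4 h and 10.5 and 10.3 at 24 h. At this region the 2 h values lay among those of DMSO, and the change went from 0.03 to 0.34 and then 1.55. The other of the 3, chr21:43574839-43575311, went from 4.66 and 5.74 CPM in DMSO to 6.74 and 6.18 at 2 h, 8.397 and 6.90 at 4 h and 16.5 and 17.3 at 24 h (0.29, 0.52 and 1.61). These 3 regions also had the largest further changes after 4 h, 1.252, 1.202 and 1.094. The other 2 of the 5 highest at 24 h were on chromosome 1, chr1:40361400-40361787 (0.28, 0.43 and 1.47) and chr1:51876609-51877092 (0.35, 0.55 and 1.46).

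In 17 regions the change at 24 h was below that at 4 h, and in 4 of the 687 both 24 h libraries lay below both 4 h libraries. Whether these regions fell after 4 h was not tested. The largest drop was at chr15:78031913-78032230, with 4.27 and 4.80 CPM in DMSO, 6.41 and 6.22 at 2 h, 7.61 and 6.78 at 4 h and 5.55 and 6.90 at 24 h. Its change was 0.61 at 4 h and 0.42 at 24 h, but one 24 h library lay inside the range of the 4 h libraries. At chr2:88381874-88382098 the change was 0.59 at 4 h and 0.40 at 24 h, and the 24 h libraries (6.88 and 7.35 CPM) were below both 4 h libraries (8.61 and 7.74). At chr3:23907656-23907864 it was 0.61 and 0.43, with 6.61 and 5.88 CPM at 24 h against 7.05 and 7.14 at 4 h. In each of these regions the 24 h libraries stayed above both DMSO libraries, as in all 687.

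The 2 h values spread from a loss to a full gain. The highest was at chr2:228707631-228707882, with 3.27 and 3.64 CPM in DMSO, 5.59 and 5.59 at 2 h, 5.35 and 4.87 at 4 h and 6.41 and 7.38 at 24 h. Here the 2 h libraries (log2 change 0.62) stood above the 4 h libraries (0.50) and below the 24 h libraries (0.90). Next were chr2:241408704-241408992 (0.56 at 2 h, 0.52 at 4 h, 0.92 at 24 h) and chr5:41527337-41527608 (0.54, 0.55 and 0.43). The lowest was at chr5:90774049-90774262, with 4.10 and 4.26 CPM in DMSO, 3.93 and 3.26 at 2 h, 5.18 and 5.82 at 4 h and 7.48 and 7.25 at 24 h. Its 2 h libraries were below both DMSO libraries (−0.19), whereas the later libraries were all above (0.36 and 0.75). Changes of −0.18 and −0.13 at 2 h were found at chr1:76773643-76773962 and chrX:78025518-78025743, which gained 0.33 and 0.34 at 4 h.

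**Figure D3:**
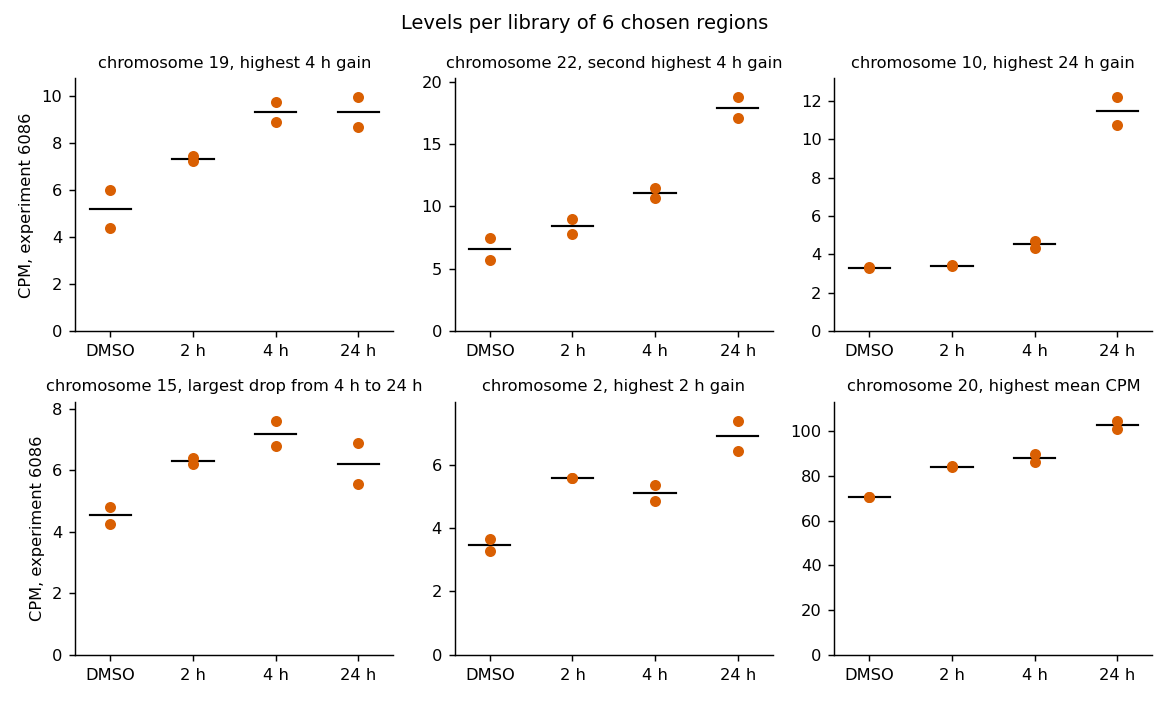
CPM of each library (points) and the mean of the 2 libraries (bars) in DMSO and at 2, 4 and 24 h in experiment 6086, for 6 chosen regions with a y axis each. The region on chromosome 10 stays near 3.3 CPM until 2 h and reaches 10.7 and 12.2 CPM at 24 h, whereas the region on chromosome 19 is level from 4 h on.

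The regions were of modest height and width. Their mean level had a median of 7.94 CPM (5.002 to 86.4), against 12.5 CPM over all regions of at least 5 CPM, and 447 of the 687 were under 10 CPM. Their median width was 320 bp (141 to 1593 bp), against 374 bp. Per kilobase of width the median level was 27.1 CPM, against 34.5 CPM. Widths of at least 1 kb were found in 4 of the regions (0.582%) and in 6.97% of the regions of at least 5 CPM. Regions gained at 24 h but not at 4 h (change under 0.1 at 4 h, 607 regions) had a similar median level, 8.01 CPM, and width, 324 bp.

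The most accessible of the chosen regions differed from DMSO by small steps. At chr20:62477393-62478482, 1090 bp wide, the level was 70.7 and 70.5 CPM in DMSO, 83.8 and 84.2 at 2 h, 86.4 and 89.9 at 4 h and 104.6 and 100.8 at 24 h. The libraries of the 4 groups did not overlap, and the changes were 0.25, 0.32 and 0.54. The other 4 of the 5 highest were chr17:60694538-60695489 (0.29, 0.33 and 0.59), chr12:108976624-108978216 (0.26, 0.33 and 0.49), chr12:110157243-110158741 (0.20, 0.34 and 0.45) and chr17:18064406-18065312 (0.24, 0.32 and 0.65). Mean levels of these 4 ran from 61.4 to 71.5 CPM. The 3 widest were the 2 on chromosome 12, 1593 and 1499 bp, and chr15:51591140-51592330, 1191 bp, with changes of 0.11, 0.31 and 0.53.

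The thresholds cut through a continuous range. Just inside 0.3 at 4 h lay chr4:24661032-24661529 (0.30) and chr13:39476608-39476977 (0.30), and just outside chr10:61539517-61540254 (0.2999) and chr10:121204515-121204748 (0.2998). Just inside 0.4 at 24 h lay chr11:125071772-125072013 (0.401) and chr1:235114571-235114835 (0.401), and just outside chr17:54040357-54040748 (0.3996) and chr12:120703639-120703813 (0.3995). At 5 CPM the nearest inside were chr6:163895654-163895836 and chr7:150663206-150663381, 5.002 and 5.003 CPM, and the nearest outside chr3:65139738-65140031 and chr4:114605992-114606137, 4.991 and 4.988 CPM. Single libraries moved both the number of regions and which regions met the rule. Without DMSO library B 1374 regions met it, 532 of them among the 687, and without DMSO library A 968, with 493 among the 687. Without 4 h library A 637 met it and without 4 h library B 863, with 490 and 574 among the 687. Without a 24 h library 673 (A) and 625 (B) met it, with 619 and 597 among the 687.

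Experiment 6211, with its own DMSO libraries, shows what these regions did in the first 2 h in libraries that played no part in choosing them. Its regions are mostly 401 bp wide, so its levels are not compared with those of 6086. Levels in 6211 are CPM with each library total scaled by its TMM factor from edgeR. A change of a region in 6211 is the log2 change fitted by edgeR, whereas medians by library were taken from the scaled CPM. By 50% reciprocal overlap with a single partner, 296 of the 687 regions (43.1%) were matched, against 61.3% of all regions of at least 5 CPM. The matched regions had a median level of 12.01 CPM in 6086 and the other 391 a median of 6.50 CPM. Of those 391, 33 overlapped a region of 6211 by at least 1 bp and 358 (52.1% of the 687) overlapped none. The corresponding share without overlap was 20.2% among all regions of at least 5 CPM. The highest level was 48.3 CPM among the matched regions and 86.4 CPM among the others. Of the 55 regions with a gain of at least 1 at 24 h, 14 were matched, and of the 68 with at least 0.5 at 4 h, 18 were. Readings from the matched regions therefore lean to higher levels and smaller gains, and leave out the most accessible regions.

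In 6211 the matched regions lay on balance above DMSO from the first time point. Their median log2 change was 0.07 at 0.5 h, 0.12 at 1 h and 0.22 at 2 h. Over the 29446 matched regions of at least 5 CPM it was 0.00, 0.01 and 0.02. At 0.5 h 208 of the 296 (70.3%) were above DMSO, at 1 h 212 (71.6%) and at 2 h 251 (84.8%), and 171 (57.8%) were above at all 3 times. Of the 29446 matched regions, 50.95% were above DMSO at 0.5 h, 52.7% at 1 h, 53.5% at 2 h and 32.2% at all 3 times. The changes at all 3 times were taken from the same DMSO libraries. By library the medians of the chosen regions were 0.06 and 0.07 at 0.5 h, 0.09 and 0.12 at 1 h and 0.19 and 0.24 at 2 h, with −0.01 and 0.01 in DMSO. The library medians of the 4 groups did not overlap and were higher at each later time.

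At 0.5 h none of the 296 regions was called. Across all 40844 regions of 6211, the quasi-likelihood test of edgeR, adjusted by Benjamini-Hochberg, called 0.0% higher and 0.00735% lower at an adjusted p under 0.05. At an unadjusted p under 0.05, 24 of the 296 were higher and 0 lower, beside 952 and 1771 of all 40844. DESeq2 also called 0 of the 296. Without DMSO library B, 1 of the 296 was called higher, beside 0.267% of all regions.

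At 1 h 3 of the 296 regions (1.01%) were called higher and 0 lower, against 0.22% higher and 2.47% lower of all 40844. At an unadjusted p under 0.05, 48 were higher and 4 lower, beside 2714 and 3973 of all 40844. Both 1 h libraries lay above both DMSO libraries in 122 of the 296 (41.2%), against 20.9% of all regions. The 3 calls did not hold: there were 0 when either DMSO library A or 1 h library B was left out, 0 with DESeq2 and 0 when the fit held only DMSO and 1 h. Leaving out DMSO library B gave 15, and leaving out 1 h library A gave 7, beside 1 lower, but the shares of all regions called higher grew too, to 2.37% and 0.81%.

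All 3 regions called at 1 h are on chromosome 1. At chr1:167632236-167632880 the levels in 6211 were 36.4 and 38.4 CPM in DMSO, 41.3 and 43.8 at 0.5 h, 47.4 and 48.5 at 1 h and 47.8 and 51.5 at 2 h. No treated library overlapped DMSO, and the change was 0.36 at 1 h (SE 0.09, adjusted p = 0.019 in edgeR) and 0.41 at 2 h (SE 0.09, adjusted p = 0.0039). At chr1:154812169-154812491 DMSO had 9.17 and 10.6 CPM, 1 h had 12.4 and 16.1 and 2 h had 13.9 and 15.6. The 1 h and 2 h libraries were all above DMSO, with changes of 0.55 (SE 0.15, edgeR adjusted p = 0.045) and 0.58 (SE 0.15, adjusted p = 0.022). At chr1:203060911-203061357 DMSO had 20.6 and 18.5 CPM, 1 h had 24.4 and 28.4 and 2 h had 22.6 and 25.1. That region passed at 1 h (0.43, SE 0.11, edgeR adjusted p = 0.037) and not at 2 h (0.28, SE 0.12, adjusted p = 0.18). The 2 h calls of the first 2 were lost without DMSO library A (adjusted p = 0.053 and 0.21) or without 2 h library B (0.086 and 0.21), and that of the second also with DESeq2 (0.13).

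By 2 h in 6211, 32 of the 296 regions (10.8%) were called higher and 0 lower. Across all 40844 regions edgeR called 1.97% higher and 4.92% lower. At an unadjusted p under 0.05, 115 of the 296 were higher and 2 lower, beside 3697 and 4587 of all 40844. Changes of the 296 ran from −0.49 to 1.06. Both 2 h libraries lay above both DMSO libraries in 189 of the 296 (63.9%), against 25.0% of all regions. DESeq2 called 10 of the 296 higher and 0 lower, against 0.379% higher of all regions. The authors' deposited table, at the same threshold, holds 10 of the 296 among its higher regions, which are 0.379% of the table, and 0 among its lower ones. It rests on the same libraries, the submitters' notes name DESeq2, and both called 155 regions higher. The deposited counts are thus not a second, separate result.

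Single libraries moved the 2 h count. Leaving out DMSO library A gave 11, 2 h library A 15 and 2 h library B 9 calls, where 0.477%, 1.23% and 0.267% of all regions were called higher. All 32 kept a positive change in each refit, but 8, 13 and 9 of them were still called. Without DMSO library B the count was 37, beside 2.72% of all regions, with 1 region called lower, and 22 of the 32 were still called. Regions that passed in each refit, DESeq2 included, numbered 3.

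The first of these 3 was chr12:108982848-108983205. Its levels in 6211 were 10.5 and 10.4 CPM in DMSO, 11.1 and 12.3 at 0.5 h, 13.7 and 14.6 at 1 h and 17.3 and 20.8 at 2 h. The groups did not overlap at any step, and the change at 2 h was 0.86 (SE 0.14, edgeR adjusted p = 0.00019). In 6086 the same region went from 7.04 and 8.14 CPM in DMSO to 13.6 and 13.7 at 24 h. It lies 4631 bp from the widest of the chosen regions, chr12:108976624-108978216.

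The second was chr1:27933789-27934201, with 7.76 and 9.98 CPM in DMSO, 10.8 and 10.7 at 0.5 h, 11.5 and 12.03 at 1 h and 15.0 and 17.9 at 2 h. All treated libraries were above DMSO and the 2 h libraries above all others (log2 change 0.90, SE 0.15, edgeR adjusted p = 0.00032). In 6086 the change was 0.31 at 2 h, 0.51 at 4 h and 0.50 at 24 h. The last was chr6:39160975-39161550, named as 1 of these 3 after its values were seen. It had 19.8 and 20.4 CPM in DMSO, 19.4 and 21.3 at 0.5 h, 23.9 and 24.4 at 1 h and 28.3 and 31.7 at 2 h. Its 0.5 h libraries overlapped DMSO and its later libraries did not (0.58 at 2 h, SE 0.11, edgeR adjusted p = 0.0012).

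The highest change at 2 h was at chr12:57552447-57552751, where the replicates lay far apart. DMSO had 10.4 and 13.6 CPM, 0.5 h had 12.7 and 15.4, 1 h had 14.8 and 9.01 and 2 h had 19.6 and 30.4. Only the 2 h libraries stood clear of DMSO (1.06, SE 0.20, edgeR adjusted p = 0.0011), and the call was lost without 2 h library B (0.72, adjusted p = 0.070) and with DESeq2 (adjusted p = 0.11). The other treated libraries of this region overlapped DMSO, and its 1 h libraries lay on either side of it. It was followed by the regions of chromosomes 1 and 12 already described (0.90 and 0.86), and then by chr7:44170762-44171051 (0.68, SE 0.16, edgeR adjusted p = 0.0096) and chr15:72453677-72453992 (0.66, SE 0.14, adjusted p = 0.0047). Both calls were lost without DMSO library A (adjusted p = 0.14 and 0.069), and the former also without 2 h library B (adjusted p = 0.21). Among the 5 highest gains at 4 h, chr9:125138719-125139033 was called as well, with 9.61 and 9.04 CPM in DMSO and 13.8 and 14.1 at 2 h (0.57, SE 0.14, edgeR adjusted p = 0.013). The groups did not overlap, yet leaving out any DMSO or 2 h library ended the call (adjusted p = 0.053 to 0.097), as did DESeq2 (adjusted p = 0.11).

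The 32 regions had changes of 0.37 to 1.06 with a median of 0.54, and 1 of them gained at least 2-fold. They lie on 15 chromosomes, 9 of them on chromosome 1. At 0.5 h all 32 were above DMSO, by 0.02 to 0.51 with a median of 0.23, where 49.6% of all regions of 6211 were above. The 0.5 h and 2 h changes were taken from the same DMSO libraries, so nothing is read from that count. In 6086 the medians of these 32 were 0.30, 0.37 and 0.66 at 2, 4 and 24 h. They make up 3.97% of the 806 regions called higher at 2 h in 6211, and 5.62% of the 569 of those that were matched.

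**Figure D4:**
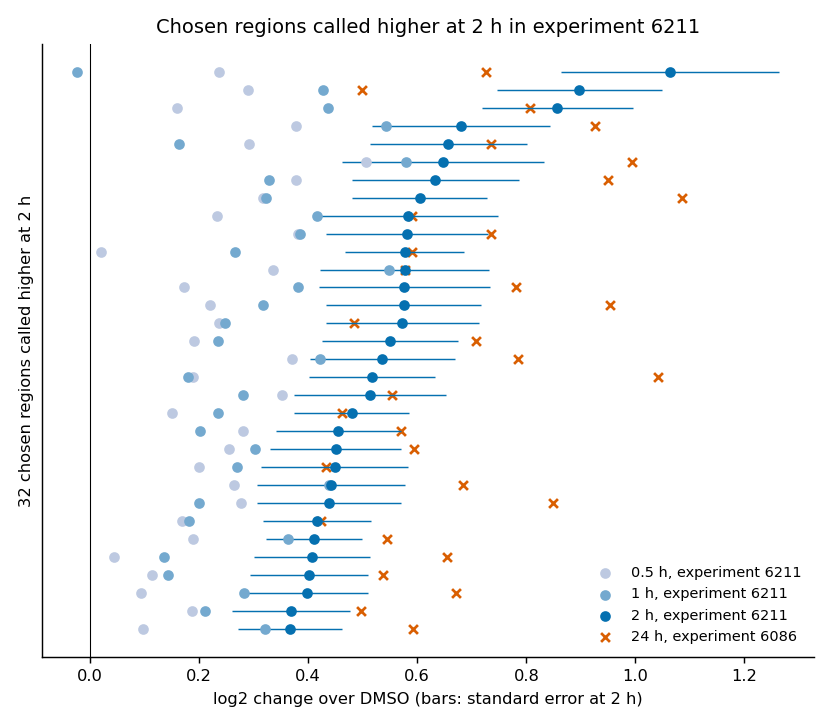
Log2 change over DMSO of the 32 chosen regions called higher at 2 h in experiment 6211, at 0.5, 1 and 2 h of that experiment (circles, with bars of 1 standard error at 2 h) and at 24 h of experiment 6086 (crosses), 1 region per row in order of the 2 h change. All 0.5 h circles lie between 0.02 and 0.51, and the 2 h circles between 0.37 and 1.06. The circles of a region share the same DMSO libraries, and the 2 h calls chose the rows.

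Against 0.5 h instead of DMSO, the 2 h libraries were higher in 239 of the 296 regions (80.7%), with a median difference of 0.15. Among the 29446 matched regions of at least 5 CPM, 52.8% were higher and the median difference was 0.01. Of the 296, 4 were called higher and 0 lower by edgeR, against 0.147% higher and 1.28% lower of all regions. At an unadjusted p under 0.05, 56 were higher and 2 lower, beside 1908 and 3077 of all 40844 regions. DESeq2 called 2 of the 296 higher and 0 lower, against 0.0147% higher of all regions. The 4 calls, chr12:108982848-108983205 (0.70, adjusted p = 0.0062), chr6:39160975-39161550 (0.56, adjusted p = 0.0068), chr12:57552447-57552751 (0.83, adjusted p = 0.029) and chr1:27933789-27934201 (0.61, adjusted p = 0.033), were all lost without either 0.5 h library or without 2 h library B.

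Not every chosen region had a positive change in 6211. The lowest change at 2 h was at chr3:191100970-191101194, with 13.3 and 11.0 CPM in DMSO, 12.01 and 9.65 at 0.5 h, 11.0 and 9.34 at 1 h and 8.63 and 8.78 at 2 h. Its 2 h libraries were below both DMSO libraries (−0.49, SE 0.16, edgeR adjusted p = 0.074), and it passed as lower without DMSO library B (adjusted p = 0.034). In 6086 it had 5.88 and 6.67 CPM in DMSO, 6.16 and 7.79 at 2 h and 9.07 and 8.62 at 24 h. The next lowest were chr21:15972973-15973253 (−0.34, SE 0.17, adjusted p = 0.26) and chrX:78025518-78025743 (−0.30, SE 0.16, adjusted p = 0.31). At chr5:41527337-41527608, also among the 3 highest at 2 h in 6086, the 2 h change in 6211 was 0.00 (SE 0.13, adjusted p = 0.998). The highest gain at 4 h, chr19:56622517-56622819, had 5.62 and 9.79 CPM in DMSO and 10.3 and 10.9 at 2 h in 6211. Its DMSO libraries lay far apart, and the change of 0.49 (SE 0.20, edgeR adjusted p = 0.15) became 0.91 without DMSO library B (adjusted p = 0.0043).

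The 2 h gain in 6211 was read against the 2 h change in 6086. Among chosen regions with a 2 h change in 6086 under 0.1 (26 matched) the 2 h median in 6211 was 0.00 with 0 called, and at 1 h it was −0.03. With 0.1 to 0.2 (76) the 2 h median was 0.18 with 6 called (7.9%), and with 0.2 to 0.3 (111) it was 0.22 with 8 called (7.21%). With at least 0.3 (83) it was 0.29 with 18 called (21.7%). All these calls were higher, as were 1.97% of all regions of 6211. Across the 296 regions the 2 h changes of both experiments correlated with Pearson r = 0.36 (Spearman rho = 0.32). These regions were chosen by values that share DMSO libraries with the 6086 side, and regions are not independent replicates. With the 4 h change r was 0.24 (rho 0.22), and with the 24 h change 0.24 (rho 0.25).

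Regions that grew more between 4 h and 24 h also had higher 2 h medians in 6211. The median was 0.17 where that growth was under 0.1 (57 matched), 0.19 at 0.1 to 0.3 (136), 0.27 at 0.3 to 0.5 (83) and 0.29 at 0.5 or more (20). Called higher were 5 (8.77%), 12 (8.82%), 14 (16.9%) and 1 (5.0%), against 1.97% of all regions of 6211. The called share thus did not rise with each class. The r across the 296 regions was 0.16.

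Neighbouring classes of gains were read in the same way. Regions gained at 4 h with a change under 0.1 at 24 h numbered 165, and 92 of them were matched. Their medians in 6211 were 0.06 at 0.5 h, 0.08 at 1 h and 0.20 at 2 h, close to those of the lasting gains, and 12 of them (13.04%) were called higher at 2 h. Regions gained at 24 h and not at 4 h, 272 of 607 matched, had medians of 0.02, 0.01 and 0.05. At 2 h 5 of them (1.84%) were called higher and 8 (2.94%) lower. Of all 40844 regions, 1.97% were called higher at 2 h and 4.92% lower, so the share called higher in these late gains was near that of all regions. The difference between these classes and the lasting gains was not tested.

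**Figure D5:**
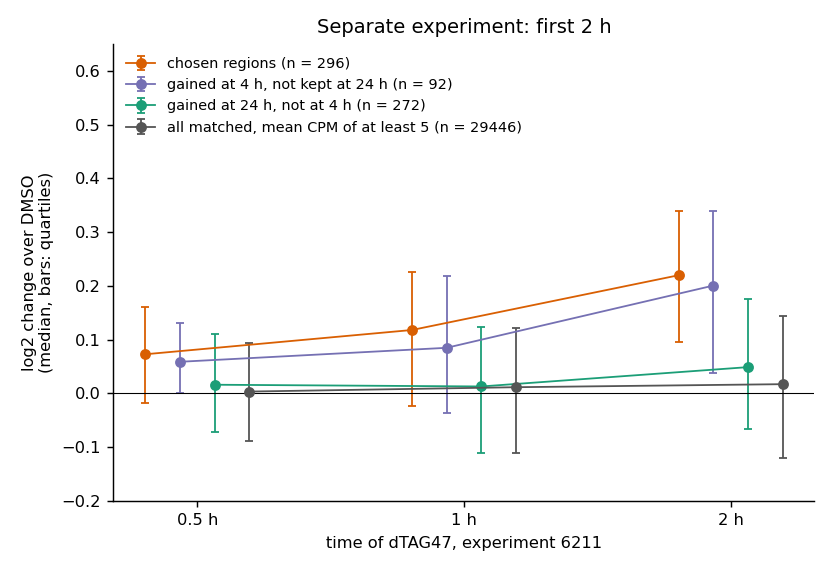
Median log2 change over DMSO (points, with bars from the lower to the upper quartile over regions) at 0.5, 1 and 2 h of experiment 6211 for the chosen regions and 3 other sets defined in experiment 6086. At 2 h the chosen regions stand at 0.22 and the gains not kept at 24 h at 0.20, while gains found only at 24 h stand at 0.05.

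The 33 chosen regions that overlapped a region of 6211 in part were wider, with a median of 829 bp and 24.6 CPM in 6086. The medians over them were 0.08, 0.11 and 0.23 at 0.5, 1 and 2 h, with 25 above DMSO at 2 h. Of all regions of 6211, 50.7% were above DMSO at 2 h. By edgeR 4 were called higher at 1 h and 10 at 2 h, and 0 lower at either time, where 0.22% and 1.97% of all regions were higher and 2.47% and 4.92% lower. Among the 33, chr4:165852775-165853059 and chr4:165853181-165853420 overlap the same region of 6211 and so share 1 reading, which was not called. All 5 of the most accessible chosen regions are among the 33. At chr20:62477393-62478482 the overlapping region had 55.5 and 61.0 CPM in DMSO, 61.2 and 66.0 at 0.5 h, 70.5 and 67.6 at 1 h and 78.0 and 74.9 at 2 h. Its 0.5 h libraries were both above DMSO, by a small margin, and the change at 2 h was 0.40 (SE 0.08, edgeR adjusted p = 0.0021).

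At chr17:18064406-18065312 the 6211 levels were 51.7 and 57.2 CPM in DMSO, 58.6 and 62.3 at 0.5 h, 68.6 and 70.2 at 1 h and 71.3 and 75.9 at 2 h. Each time lay above the one before it, with changes of 0.35 at 1 h (SE 0.08, edgeR adjusted p = 0.013) and 0.44 at 2 h (SE 0.08, adjusted p = 0.00090). The regions on chr17:60694538-60695489 (0.36 at 2 h, adjusted p = 0.0032), chr12:108976624-108978216 (0.31, adjusted p = 0.020) and chr12:110157243-110158741 (0.32, adjusted p = 0.021) were also called at 2 h. At chr22:24183839-24184710, singled out after its values were seen, DMSO had 24.7 and 27.9 CPM and 2 h had 42.0 and 39.6. That was the lowest adjusted p at 2 h among the 33 (0.64, SE 0.10, edgeR adjusted p = 0.00012), and its 0.5 h libraries, 33.5 and 35.9 CPM, were already above DMSO.

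The chosen regions were spread over the genome. They lie on 23 chromosomes and in 551 windows of 1 Mb, with a median gap of 2267 kb between neighbours. Chromosome 1 holds 84 (12.2%, against 10.9% of regions of at least 5 CPM), chromosome 19 holds 18 (2.62% against 4.25%) and chromosome 11 holds 24 (3.49% against 5.07%). The median distance to the nearest open region was 5755 bp, against 6021 bp. Within 50 kb, 33.9% had another region that gained at least 0.4 at 24 h, against 19.6% of regions of at least 5 CPM. A region that fell by at least 0.4 at 24 h lay within 50 kb of 25.6%, against 35.4%. For gains found only at 24 h the 2 shares were 28.5% and 27.5%. These shares come from the libraries that chose the regions and were not tested.

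Close neighbours among the chosen regions were few. There were 14 pairs within 10 kb, which hold 28 of the regions (4.08%), and the smallest gap was 101 bp, between chr16:27729098-27729796 and chr16:27729898-27730537. The pair gained 0.31 and 0.50 at 4 h and 0.43 and 0.72 at 24 h. On chromosome 9, chr9:110011257-110011785 and chr9:110014115-110014672, 2329 bp apart, gained 0.50 and 0.44 at 4 h and 0.92 and 1.11 at 24 h. On chromosome 15, chr15:100526503-100526811 and chr15:100526958-100527565, 146 bp apart, gained 0.47 and 0.48 at 4 h but 0.47 and 0.83 at 24 h. The rule gave every region a 4 h change of at least 0.3, so nothing is read from that likeness, and these 3 pairs were singled out after their values were seen.

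Windows of 1 Mb with at least 4 chosen regions numbered 7, and 2 of them held 5. The first runs from 27 to 28 Mb of chromosome 1, where 79 regions reach 5 CPM. It holds chr1:27933789-27934201, called in 6211, and, at a lower coordinate, chr1:27896380-27896788, whose levels were 5.88 and 6.24 CPM in DMSO, 7.99 and 8.17 at 2 h, 8.66 and 8.73 at 4 h and 13.1 and 13.9 at 24 h. The latter was higher again at 24 h (0.39, 0.49 and 1.09), whereas the former was level from 4 h on. The other window runs from 241 to 242 Mb of chromosome 2, where 56 regions reach 5 CPM, and holds chr2:241408704-241408992, the second highest at 2 h. Its 5 regions gained 0.31 to 0.52 at 4 h and 0.46 to 0.92 at 24 h. The share of open regions that were chosen varied among the 23 chromosomes from 0.882 per 100 on chromosome 19 to 1.98 per 100 on chromosome 18.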

How the data were processed

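The members of the set and the comparison classes were chosen with earlier results of these data known. The deposited count tables hold the authors' raw counts of reads in each open region, all whole numbers. Per the submitters' processing notes, the tools were Bowtie2, Trimmomatic 0.32, DiffBind, Genrich 0.6.1, deepTools and DESeq2, with the builds hg19 and dm3. Their roles, the treatment of duplicates and any shift for the transposase were not given in the sources used here. Comparison tables of 6211 deposited by the authors hold log2 fold changes and p-values, which were used only for the counts named as theirs.

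The treatment and time in its name put each column in a group, and 0 count columns were left without a group. For the counts of 6211, edgeR 4.0.16 was run under R 4.3.3 (TMM, filterByExpr, quasi-likelihood test, all 8 libraries in 1 fit, 4 residual degrees of freedom), and all 40844 regions passed the filter. The biological coefficient of variation was 5.96%. The standard error is the log2 change divided by the square root of F. An exact permutation test of 2 libraries against 2 cannot go below p = 0.333, so single regions were tested only in this fit. The chi-square of counts was 1.34 to 2.66 per degree of freedom between libraries of a group, so no pair agreed within sampling noise. Regions were matched with bedtools 2.31.1.

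Regions were named by rule: the 5 highest changes at 4 h and at 24 h, the 5 highest levels, the 3 largest and 3 smallest further changes after 4 h, the 3 highest and 3 lowest changes at 2 h, the 3 widest, and the 2 nearest on each side of each threshold. Among matched regions they were the 5 highest and 3 lowest changes at 2 h in 6211, the 3 lowest adjusted p of those called at 1 h and 2 h, and any called lower. Alternatives were DESeq2 1.42.0, other scalings, no filter, fewer groups in the fit, a replicate block, each library left out, other overlaps and other thresholds. Sequence, motif and gene readings need hg19 and were not made.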

Additional observations from a re-analysis of the deposited data

How the results depend on the processing

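The positive median changes of the chosen regions in 6211 held under other scalings, other overlaps, without regions between 57 and 59 Mb of chromosome 12 and without single libraries, while the counts of calls moved. No median was computed for the other alternatives. The median at 0.5 h, 0.07, was 0.0833 with library size only, 0.11 with 80% reciprocal overlap and 0.0469 to 0.0939 without a library. The median at 1 h, 0.12, was 0.15 with 80% overlap and 0.0883 to 0.1448 without a library. Called at 1 h were 3, against 0 with DESeq2, 0 with only the 2 groups compared, 7 with any overlap of at least 1 bp and 0 with 0.5 as both thresholds of the rule. The share of all regions called higher at 1 h also fell, from 0.22% to 0.0147% with DESeq2 and 0.0294% with only the 2 groups. Called at 2 h were 32, against 10 with DESeq2, 21 with only the 2 groups, 13 of 114 with 80% overlap and 5 of 15 with both thresholds at 0.5. Of all regions, 1.97% were called higher at 2 h in the main fit, 0.379% with DESeq2 and 1.02% with only the 2 groups. For 2 h against 0.5 h, DESeq2 called 2 in place of 4, and 0.0147% of all regions higher in place of 0.147%. Leaving out 1 library gave 0 to 1 calls at 0.5 h, 0 to 15 at 1 h, 9 to 37 at 2 h and 0 to 4 for 2 h against 0.5 h. The rule took 240 regions at a minimum of 10 CPM and 1031 at 2 CPM, and 625 to 1374 without a library. With TMM-scaled CPM the rule took 531 regions, and with 1 CPM added in place of 0.5 it took 527, all among the 687. With 0.1 CPM added it took 818, which held all 687. Matched regions numbered 114 with 80% overlap.

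The letters of the columns carry no link to the numbers in the labels, and deviations of libraries with the same letter had correlations of −0.052 to 0.211, so they were not taken as pairs. With the letter as a replicate block, 37 chosen regions were called higher at 2 h, all 32 among them, beside 2.35% of all regions. That fit called 1 chosen region lower, chr3:191100970-191101194 (edgeR adjusted p = 0.047). For 16 named regions, 190 alternative values were computed, of which 154 kept direction and side of the threshold, 28 lost a call and 3 gained one. In 5 the sign turned, all near 0: chr4:24661032-24661529 went to −0.015 without DMSO library B (up to 0.354 without DMSO library A), and chr5:41527337-41527608 to −0.001 with median-ratio size factors, −0.004 with only the 2 groups and −0.04 to 0.046 without a library (−0.033 without 2 h library B). The cause was not tested. A group left with 1 library was assumed to vary like the other groups. Scaling to reads in regions would hide a change common to all regions.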
